A study of Mus musculus with 5 samples.

Results

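Fc receptors, the adaptors that pass on their signals and inhibitory receptors of the same signalling system were examined in 2 progenitor populations of mouse bone marrow. The 9 genes were the 4 Fc gamma receptors Fcgr1, Fcgr2b, Fcgr3 and Fcgr4, the adaptors Fcer1g and Tyrobp, the kinase Syk, and the inhibitory receptors Lair1 and Sirpa. They were chosen by gene symbol, and every probe set that the platform annotation assigns to exactly 1 of these symbols was taken, which gave 21 of 45037 probe sets for these 9 of 18193 named genes. Expression had been measured on 5 Affymetrix mouse whole-genome arrays, 3 of common dendritic cell progenitors (CDP) and 2 of common myeloid progenitors (CMP), all from wild type C57BL/6 mice. CDP, which give rise to dendritic cells, were sorted as lineage-negative, Sca-1-negative, CD34+ and Flk2+ cells with intermediate c-Kit that carried CD115 and lacked CD16/32. CMP, an earlier progenitor of granulocytes, monocytes, erythroid cells and megakaryocytes, were sorted as lineage-negative, Sca-1-negative, CD34+ and Flk2+ cells with high c-Kit that lacked CD11c, CD115 and CD16/32. The labels give neither age nor treatment. They also do not say how many animals were used and whether cells were pooled, so the spread behind each p-value may be technical. The series is titled as a study of IRF-8 in lineage choice, and the comparison asks how these genes differ between the progenitor committed to dendritic cells and the earlier one.

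Activating Fc receptors bind the constant part of antibodies but carry no signalling motif of their own on most chains. They pair with a small adaptor, Fcer1g (the Fc receptor gamma chain) or, for many other myeloid receptors, Tyrobp (DAP12), whose cytoplasmic tail holds an immunoreceptor tyrosine-based activation motif (ITAM) that recruits the kinase Syk once phosphorylated. Inhibitory receptors such as Fcgr2b, Lair1 and Sirpa carry the opposing motif (ITIM), which recruits phosphatases and dampens the same signals. The gate itself bears on this family, because the antibody against CD16/32 recognises the proteins of Fcgr3 (CD16) and Fcgr2b (CD32), and both populations were sorted without that staining.

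Values are the deposited log2 values, in which log2 5 served as the detection level. Testing required that level on 2 or more of the 5 arrays, and 14 of the 21 probe sets, covering 7 of the 9 genes, did so. The other 7 probe sets, among them all those of Fcgr1 and Fcgr4, lay below log2 5 on every array. A call is an adjusted p under 0.05 in limma, with Benjamini-Hochberg adjustment over all 16552 tested probe sets, and each gene is represented by its tested probe set with the highest mean unless another is named. Of 8449 genes tested, 2.14% were called, with 1.67% higher and 0.473% lower in CDP. Of the 9 genes, 2 (Tyrobp and Lair1) were called higher in CDP, none was called lower, 5 did not pass and 2 were not tested. By probe set, 2 of the 14 tested were called, beside 1.73% of all tested (1.31% higher and 0.423% lower in CDP). At an unadjusted p under 0.05 there were 4 of the 7 tested genes (Tyrobp, Lair1, Fcer1g and Sirpa), beside 17.1% of all tested genes. On 5 of the 7 tested genes every CDP array lay above both CMP arrays, an order that 23.7% of all tested genes showed. The same order held on 8 of the 14 probe sets, beside 21.2% of all tested, and the reverse on none, beside 11% of all tested. The median difference over the 7 tested genes was 1.82 (log2, CDP minus CMP) and over all tested genes 0.17. In bulk samples such as these, fewer expressing cells and less RNA per cell cannot be told apart.

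Across the series, 34.0% to 35.8% of all probe sets reached log2 5 on an array. The 5′ beta-actin control probe set was low on CDP 1 and CMP 1 (6.54 and 6.71) against 10.52 to 12.97 on the other arrays. Differences are therefore also given within both kinds of array, as CDP 1 minus CMP 1, and as the mean of CDP 2 and CDP 3 minus CMP 2. Across all tested probe sets, CMP 1 correlated at 0.924 with CDP 1 and at 0.895 with CMP 2. CDP 1 correlated at 0.916 with CDP 2 and at 0.925 with CDP 3, and CMP 2 at 0.911 with CDP 2. Of 8 neutrophil markers with a probe set, 7 reached log2 5 on CDP 2 and none on any other array, with a mean over the markers of 9.43 on CDP 2 and 2.62 to 3.04 elsewhere. All 6 progenitor markers (Kit, Cd34, Flt3, Gata2, Myb and Mpo) were at or above log2 5 on every array, and all 5 T and NK cell markers were below it on every array. Of 7 genes of the sorting gate with a probe set, Itgax, the gene of CD11c, was called higher and Kit lower in CDP (limma, adjusted p = 0.0155 and 0.0318), and the other 5 did not pass. Itgax reached log2 5 on the CDP arrays alone, so that it was tested through the group where it is high. Among those that did not pass was Csf1r, the gene of CD115 (adjusted p = 0.0966), at 12.94 to 13.16 on the CDP arrays and at 11.75 and 11.03 on CMP 1 and CMP 2, which had been sorted as lacking that protein.

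**Figure D1:**
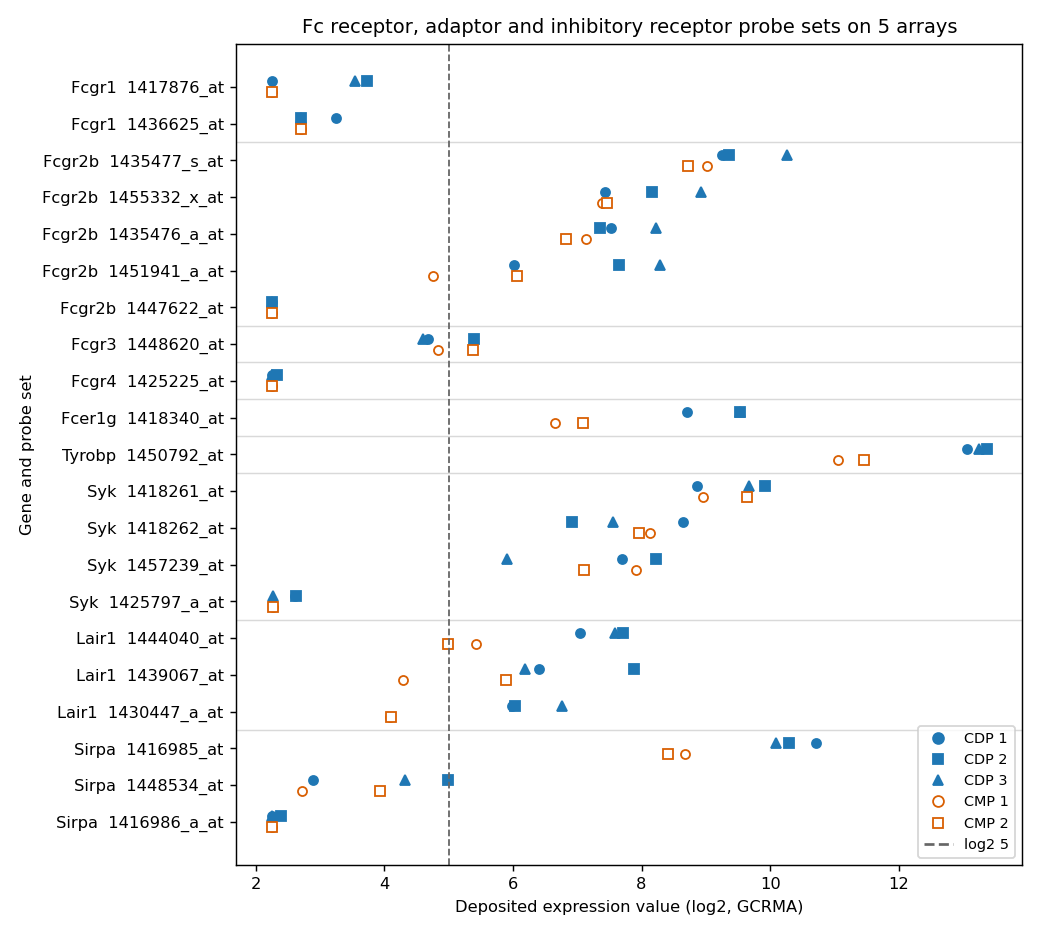
Deposited log2 value (horizontal axis) of each of the 21 probe sets (vertical axis, with gene and probe set name) on the 3 CDP arrays (filled) and the 2 CMP arrays (open), with 1 point per array, marker shape for the replicate number and a dashed line at the detection level of log2 5. Tyrobp, Fcer1g, the brightest Sirpa probe set and all 3 Lair1 probe sets have every CDP array to the right of both CMP arrays, whereas Fcgr1 and Fcgr4 stay left of the line; where arrays have nearly the same value, as CDP 2 and CDP 3 for Fcer1g, points cover each other.

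Both ITAM adaptors had more transcript on every CDP array than on either CMP array. Tyrobp (probe set 1450792_at), which couples receptors such as those of the TREM family to Syk, was at 13.07, 13.37 and 13.25 (log2) on CDP 1, CDP 2 and CDP 3 and at 11.06 and 11.45 on CMP 1 and CMP 2. The groups were apart by 1.61, more than the whole range within either of them. The means were 13.23 ± 0.15 (SD, n = 3) and 11.25 ± 0.28 (SD, n = 2), a difference of 1.97 ± 0.32 (SE), or 3.92-fold (limma, adjusted p = 0.0477). Within the arrays low in 5′ signal the difference was 2.01, and within the others it was 1.85.

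Fcer1g (1418340_at), the shared gamma chain of the activating Fc receptors and of the mast cell IgE receptor, was at 8.70, 9.54 and 9.54 on CDP 1, CDP 2 and CDP 3, against 6.66 and 7.09 on CMP 1 and CMP 2. The lowest CDP array stood 1.61 above the highest CMP array. The difference was 2.38 ± 0.40 (SE), or 5.21-fold, and narrowly missed the threshold (limma, adjusted p = 0.0525), at 2.04 and 2.44 within the arrays low in 5′ signal and within the others. It was the widest difference of the 7 tested genes. The alpha and beta chains of the IgE receptor, Fcer1a and Ms4a2, were below log2 5 on every array. The mast cell and basophil markers ran the other way, with a list mean of 3.77 to 3.88 on the CDP arrays and 6.82 and 5.93 on CMP 1 and CMP 2.

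Both calls, of Tyrobp and of Lair1, stood close to the threshold. With all 5 arrays kept, both were lost after median centring (adjusted p = 0.0533 for Tyrobp and 0.0551 for Lair1), with the filter at log2 4 (0.0533 and 0.0542), without a filter (0.124 and 0.205) and with a robust prior (0.0505 for both). Lair1 alone was lost after quantile normalization (0.0573) and with a trended prior (0.0557). Leaving out any 1 of the 5 arrays ended the call of Tyrobp (adjusted p from 0.0892 without CDP 1 to 0.265 without CDP 3) and of Lair1 (0.0753 without CDP 1 to 0.270 without CDP 3), while the differences stayed between 1.77 and 2.17 for Tyrobp and between 2.02 and 2.46 for Lair1. Without CDP 2, the array with neutrophil transcripts, the differences were 1.90 for Tyrobp, 2.24 for Fcer1g, 2.11 for Lair1 and 1.85 for Sirpa. When array kind by 5′ signal was a block in the fit, Tyrobp, Fcer1g, Lair1 and Sirpa all passed (adjusted p = 0.0112, 0.0078, 0.0148 and 0.0125), but this fit called 1438 of the 16552 tested probe sets (8.69%), against 287 without the block.

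**Figure D2:**
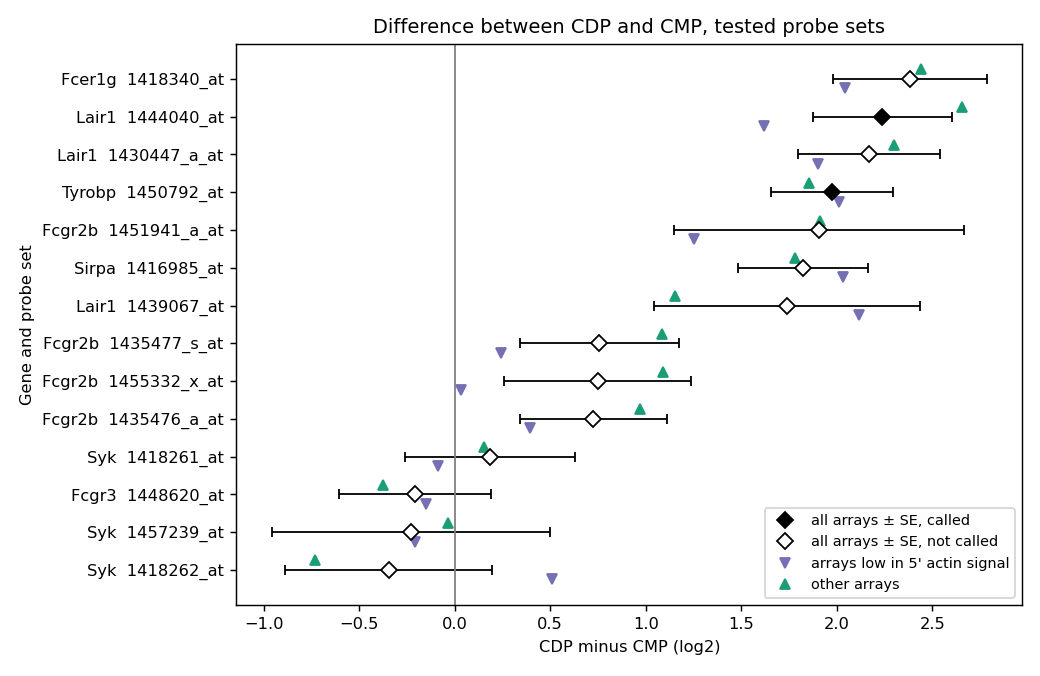
CDP minus CMP (log2, horizontal axis) for the 14 tested probe sets, with the difference over all arrays as a diamond, filled where called, and bars for the standard error of the fit. Triangles give the difference within the array kind with little 5′ beta-actin signal (pointing down, CDP 1 minus CMP 1) and within the others (pointing up); both lie between 1.15 and 2.66 for Tyrobp, Fcer1g, Lair1 and the Sirpa probe set, and on either side of 0 for Syk probe set 1418262_at (0.51 and -0.73).

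The Fc gamma receptors themselves were unequally represented. Only Fcgr2b, the single inhibitory member of the family, was well above the detection level. Its brightest probe set (1435477_s_at) was at 9.25, 9.36 and 10.25 on CDP 1, CDP 2 and CDP 3 and at 9.01 and 8.72 on CMP 1 and CMP 2. Every CDP array lay above both CMP arrays, but by only 0.24, less than the range within the CDP group. The difference of 0.76 ± 0.42 (SE) did not pass (limma, adjusted p = 0.448), and its 95% interval ran from -0.26 to 1.77. It was 0.24 within the arrays low in 5′ signal and 1.09 within the others.

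The other tested Fcgr2b probe sets gave differences of 0.73 ± 0.38 (1435476_a_at), 0.75 ± 0.49 (1455332_x_at) and 1.91 ± 0.76 (1451941_a_at), and none passed. The last of these was at 6.02, 7.65 and 8.29 on the CDP arrays and at 4.76 and 6.06 on the CMP arrays, so that CDP 1 lay below CMP 2. Of the 5 Fcgr2b probe sets, 3 (1435476_a_at, 1435477_s_at and 1455332_x_at) are annotated with the same source sequence, and these gave the 3 smaller differences. The fifth, 1447622_at, was at the lowest value of the table on all 5 arrays. The names of 2 of the probe sets mark them as able to match other transcripts, and the Fc gamma receptors resemble each other in sequence, so signal from another member of the family cannot be told apart on them.

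Fcgr3, the activating low-affinity receptor that shares the CD16/32 gate, lay around the detection level on its only probe set (1448620_at). It was at 4.68, 5.40 and 4.60 on CDP 1, CDP 2 and CDP 3 and at 4.83 and 5.38 on CMP 1 and CMP 2. The groups overlapped, and 1 array of each reached log2 5. The difference of -0.21 ± 0.40 (SE) did not pass (limma, adjusted p = 0.86), and its 95% interval ran from -1.18 to 0.76. The CDP array that reached it was CDP 2, the one with neutrophil transcripts, and their part in its Fcgr3 value was not tested. Without CDP 2 the difference was -0.46. Of the receptors that the gate excludes as surface protein, Fcgr2b thus reached the detection level on all 5 arrays on 1435476_a_at, 1435477_s_at and 1455332_x_at. Fcgr3 reached it on CDP 2 and CMP 2, on its only probe set.

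Fcgr1, the high-affinity receptor of monocytes and macrophages, was at or below 3.74 on all arrays on both of its probe sets, with the highest value on CDP 2. Fcgr4, the mouse receptor for IgG2a and IgG2b on monocytes and neutrophils, was at 2.33 on CDP 2 and at the lowest value of the table, 2.26, on the other 4 arrays. Neither was tested, and both were not well above background in either population. Of 8 macrophage and monocyte markers, 2 (Cd163 and F13a1) were called higher in CDP, whereas Mertk, C1qa and C1qb were below log2 5 on every array. The mean over these 8 was 5.49, 6.30 and 5.84 on CDP 1, CDP 2 and CDP 3, and 4.87 and 4.98 on CMP 1 and CMP 2, and the part of such cells in the higher Tyrobp, Fcer1g and Lair1 values was not tested.

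In the RefSeq gene order of GRCm38.p6, Fcgr2b, Fcgr4 and Fcgr3 are direct neighbours among protein-coding genes on mouse chromosome 1, which also holds Fcer1g. Fcgr2b was thus detected beside a neighbour that was not. The 250 bases before the annotated start of both, taken from RefSeq, are shown for this contrast, with matches in capitals to the motifs described after them.
Fcgr2b, chr1:170976072-170976321, minus strand: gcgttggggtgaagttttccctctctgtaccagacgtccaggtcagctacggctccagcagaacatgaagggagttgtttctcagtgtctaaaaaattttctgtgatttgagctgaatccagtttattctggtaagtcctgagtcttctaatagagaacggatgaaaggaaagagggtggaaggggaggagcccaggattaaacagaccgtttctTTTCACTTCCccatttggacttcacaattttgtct
Fcgr4, chr1:171018676-171018925, plus strand: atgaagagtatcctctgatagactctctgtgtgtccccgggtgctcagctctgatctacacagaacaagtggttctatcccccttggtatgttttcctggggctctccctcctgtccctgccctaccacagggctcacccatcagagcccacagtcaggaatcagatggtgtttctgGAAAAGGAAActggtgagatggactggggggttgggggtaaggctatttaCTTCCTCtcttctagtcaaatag
The motifs, searched on both strands, were GGAA and GAAA separated by 2 bases, the composite element that PU.1 binds together with IRF4 or IRF8, a pair of GAAA separated by 2 bases, an IRF element, and GAGGAA and AGGAAG, cores of the ETS family to which PU.1 belongs. The last 2 overlap by 5 bases and are often found together. Fcgr2b had the composite on the strand opposite to the gene, from 35 to 26 bases before the start, as TTTCACTTCC. Fcgr4 had an IRF element from 73 to 64 bases before its start and the overlapping ETS cores from 23 to 17. Among 32851 windows of the same length, 2.3% held the composite, 2.98% the IRF element, 23.3% GAGGAA and 29.5% AGGAAG. A match describes the letters only and is neither a binding site nor a cause of the levels.

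Syk, the kinase recruited by phosphorylated ITAMs, was detected in both populations without a difference that passed. Probe set 1418261_at was at 8.87, 9.92 and 9.66 on CDP 1, CDP 2 and CDP 3 and at 8.96 and 9.64 on CMP 1 and CMP 2. The groups overlapped throughout, and the difference was 0.19 ± 0.45 (SE, limma, adjusted p = 0.893), with a 95% interval from -0.90 to 1.27. An interval of this width does not show that the levels are alike.

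The other tested Syk probe sets gave -0.35 ± 0.54 (1418262_at) and -0.23 ± 0.73 (1457239_at), and neither passed. On 1418261_at the arrays low in 5′ signal were the lowest of their groups. On 1418262_at they were the highest of theirs, with CDP 1 at 8.64 against 6.92 and 7.55 on CDP 2 and CDP 3, and CMP 1 at 8.13 against 7.97 on CMP 2. The fourth probe set, 1425797_a_at, lay at or below 2.62 on every array. The part of RNA quality in these opposite patterns was not tested.

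Lair1, an inhibitory receptor for collagens, had more transcript on all CDP arrays on each of its 3 probe sets. On the brightest (1444040_at) it was at 7.05, 7.71 and 7.60 on CDP 1, CDP 2 and CDP 3, against 5.43 and 4.995 on CMP 1 and CMP 2. The gap between the groups was 1.62, and 1 of the 2 CMP arrays lay just below the detection level. The difference was 2.24 ± 0.36 (SE, limma, adjusted p = 0.0477), and with values below 5 set to 5 the fold was at least 4.71. On 1430447_a_at the CDP arrays were at 5.99, 6.03 and 6.77 and both CMP arrays below detection at 4.09 and 4.10, at least 2.41-fold, without passing (adjusted p = 0.0543). On 1439067_at the arrays spread more widely, from 6.19 to 7.88 in CDP and at 4.29 and 5.89 in CMP, and the difference of 1.74 ± 0.70 did not pass (adjusted p = 0.302). Lair1 passed the detection filter through the CDP arrays, so its presence among the tested genes already favoured a difference of this sign.

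The windows before the starts of Fcer1g and Lair1, which had the widest differences of the 7 tested genes, are shown for comparison with those of the receptors, with the same motifs in capitals.
Fcer1g, chr1:171234350-171234599, minus strand: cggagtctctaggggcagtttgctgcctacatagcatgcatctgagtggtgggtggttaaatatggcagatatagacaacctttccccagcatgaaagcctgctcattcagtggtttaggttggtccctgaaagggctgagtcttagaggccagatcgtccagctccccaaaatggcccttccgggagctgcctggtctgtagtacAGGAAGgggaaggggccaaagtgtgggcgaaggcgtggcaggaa
Lair1, chr7:4063205-4063454, minus strand: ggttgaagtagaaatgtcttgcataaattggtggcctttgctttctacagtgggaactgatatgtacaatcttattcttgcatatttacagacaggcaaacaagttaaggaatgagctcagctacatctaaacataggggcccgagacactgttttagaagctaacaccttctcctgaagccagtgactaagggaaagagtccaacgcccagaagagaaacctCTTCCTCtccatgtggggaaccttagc
Both held AGGAAG, from 44 to 39 bases before the start in Fcer1g and, on the opposite strand, from 27 to 22 in Lair1, where it overlapped GAGGAA. Neither held the composite or the IRF element in this window. The ETS core that both held also occurred in windows of Fcgr1, Fcgr3 and Fcgr4, so it was not particular to genes with wide differences. Fcgr1 and Fcgr4 were below log2 5 on every array, and Fcgr3 differed by -0.21 without passing. A window of Syk held the other ETS core alone, and that of Fcgr2b held neither core.

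Sirpa, the inhibitory receptor for CD47 that marks one branch of conventional dendritic cells, was at 10.71, 10.30 and 10.09 on CDP 1, CDP 2 and CDP 3 (1416985_at), and at 8.67 and 8.41 on CMP 1 and CMP 2. All CDP arrays lay at least 1.41 above the CMP arrays. The difference of 1.82 ± 0.34 (SE), or 3.54-fold, did not pass (limma, adjusted p = 0.068), and it was 2.03 within the arrays low in 5′ signal and 1.78 within the others. All 3 Sirpa probe sets are annotated with the same source sequence, yet the other 2 stayed below log2 5. Of these, 1448534_at ran from 2.89 to 4.999 in CDP and was at 2.73 and 3.94 in CMP, and 1416986_a_at did not exceed 2.39. The measurement of Sirpa therefore rests on 1 probe set.

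The patterns of the 7 tested genes over the arrays were compared by distance. As a measure of likeness, each gene's values were centred on their own mean, and the root mean square distance between patterns was taken over the 5 arrays, which share the tissue and the amplification protocol and are too few for a correlation. The closest pair of the 7 tested genes was Fcer1g and Tyrobp, at 0.30 (log2), followed by Fcer1g and Lair1 at 0.30 and Tyrobp and Lair1 at 0.32. Sirpa was 0.35 from Tyrobp, 0.46 from Lair1 and 0.61 from Fcer1g. Fcgr2b was closest to Syk, at 0.57, and Fcgr3 also to Syk, at 0.34. Among the other 8448 genes, the nearest to Tyrobp were Unc119b (0.081), Ppm1m (0.095) and Srgap3 (0.098). The nearest to Sirpa were Sgcb (0.048), Nusap1 (0.11) and Sla (0.12), the nearest to Lair1 were Card6 (0.090), Dnajb14 (0.13) and Nrp1 (0.14), and Scpep1 (0.11) was among the 3 nearest to Fcer1g. Nearest to Syk were Cert1 (0.039), Rbl2 (0.061) and Pop7 (0.072), and nearest to Fcgr2b were Ints10 (0.083), Orc3 (0.094) and Rabep2 (0.098). Also nearest to Fcer1g were 0610040J01Rik (0.11) and Sh3tc1 (0.12), and nearest to Fcgr3 were Lcor (0.080), Exosc8 (0.11) and Cenph (0.13). Each of the 7 tested genes was thus closer to these other genes than to any other of the 7. Such distances describe these arrays and carry no test.

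The pathway around the 9 genes was followed through 9 lists of 126 other genes, of which 114 had a probe set and 53 were tested. Clec7a, Pik3r5 and Pirb were called higher in CDP, Clec4e was called lower, and 49 did not pass. Of the 53, 7 reached log2 5 in 1 population only (Fcgrt, Clec4d, Clec4e, Pik3r5, Pirb, Siglecg and Cd22), so that the filter admitted them through the group where they are high and already favoured their sign. This applies to 3 of the 4 calls, all but Clec7a. Against the background of 1.67% higher and 0.473% lower, these 3 and 1 of 53 are small counts. After median centring of the arrays they were 3 higher and 2 lower, and after quantile normalization 4 higher and 2 lower. Without CDP 1, Clec4e and Pirb kept their calls while Clec7a and Pik3r5 did not (adjusted p = 0.0729 and 0.0576), and without any other 1 array none of the 4 was called (0.0817 to 0.257). The median difference over the 53 genes was 0.63, beside 0.17 over all tested genes.

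Among receptors that signal through the adaptors, 1 was called lower in CDP and none higher. Of 19 such receptors with a probe set, 13 were below log2 5 on all arrays, among them Trem2, Clec5a, Oscar and Siglech, and 5 were tested. Clec4e (Mincle), a receptor for mycobacterial glycolipid that pairs with Fcer1g, was at 2.76, 2.97 and 3.31 on CDP 1, CDP 2 and CDP 3 and at 7.16 and 6.92 on CMP 1 and CMP 2. It reached log2 5 in CMP alone, through which it was tested, and was lower in CDP by at least 4.11-fold (limma, adjusted p = 0.0114), with both of its tested probe sets called. Its relative Clec4d, also not well above background on any CDP array, was at least 2.99-fold higher in CMP without passing (adjusted p = 0.0606). Trem3 differed by -2.48 ± 0.55 (SE, adjusted p = 0.103) and Trem1 by -1.25 ± 0.39 (adjusted p = 0.204), without passing. On all 4 of these genes both CMP arrays lay above every CDP array, an order that 10.8% of all tested genes showed. Cd300lb, an activating receptor that pairs with Tyrobp, had the other sign, at 1.55 ± 0.36 (adjusted p = 0.111). The median difference of the 5 was -2.48.

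Clec7a (Dectin-1), the beta-glucan receptor that recruits Syk through a half-ITAM in its own tail and needs no adaptor, was at 10.41, 10.17 and 10.28 on the CDP arrays and at 7.85 and 7.99 on the CMP arrays. This was a difference of 2.37 ± 0.30 (SE), 5.16-fold higher in CDP (limma, adjusted p = 0.0301). It was the single tested gene of the 3 on its list with a probe set. The other 2, Clec1b and Clec2d, were below log2 5 on every array, and their place comes from the list. Clec9a, also listed, had no single-symbol probe set.

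Few other Fc receptors or adaptor chains were detected. Of 10 further Fc receptors with a probe set, 8 were below log2 5 on every array. Fcgrt, the neonatal Fc receptor that recycles IgG, was at 6.42, 8.17 and 6.80 on the CDP arrays and below detection on CMP 1 and CMP 2 (3.84 and 4.33), at least 4.38-fold, without passing (adjusted p = 0.0691). Trim21, the cytosolic antibody receptor, differed by 0.08 ± 0.32 (adjusted p = 0.935). Of 7 other adaptor chains, 6 were below log2 5 on every array, among them Cd247 and Hcst, the direct neighbour of Tyrobp, which holds no ITAM itself. Cd79b, a signalling chain of the B cell receptor, was tested and differed by 1.31 ± 0.49 (adjusted p = 0.272), while the other B cell markers with a probe set, Cd79a, Ms4a1, Pax5 and Ebf1, were below log2 5 on every array.

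Below the adaptors, the signalling genes were mostly detected and mostly did not pass. Of 27 genes listed as signalling below Syk with a probe set, 24 were tested, 1 was called higher and 23 did not pass, with a median difference of 0.43. The called gene was Pik3r5, a regulatory subunit of the phosphoinositide 3-kinase gamma, at 7.19, 7.57 and 7.78 on the CDP arrays and at 4.64 and 4.40 on the CMP arrays. It was tested through the CDP arrays alone and was higher there by at least 5.71-fold (limma, adjusted p = 0.0217). Its place below Syk comes from the list, and whether it signals downstream of the adaptors in these cells was not tested. Plcg2, the phospholipase that Syk activates in myeloid cells, differed by 0.63 ± 0.47 (adjusted p = 0.595), and Btk, a kinase that helps to activate it, by 0.14 ± 0.64 (adjusted p = 0.945). Of the kinases of the Src and Syk families with a probe set, 5 of 6, Fgr among them, were below log2 5 on every array. Fyn, the sixth, differed by 1.66 ± 0.42 (adjusted p = 0.137).

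Of 21 other ITIM receptors with a probe set, 10 were tested, 1 was called higher in CDP and 9 did not pass. Their median difference was 1.31, and 9 of the 10 were positive, beside 5121 of all 8449 tested genes. Pirb, Siglecg and Cd22 reached log2 5 in CDP alone, so the filter already favoured their sign, and the count and median include them. The called gene was Pirb, an inhibitory receptor for MHC class I, at 5.21, 7.36 and 6.87 on the CDP arrays and at 2.45 and 2.33 on the CMP arrays, at least 2.79-fold (limma, adjusted p = 0.0469), and it too was tested through the CDP arrays alone. Pirb has close relatives in the Pira family, and signal from these cannot be told apart on its probe set. Cd22, a lectin of B cells that binds sialic acid, was at least 2.55-fold above CMP, where it was below detection, without passing (adjusted p = 0.0556). Btla differed by 1.72 ± 0.32 (adjusted p = 0.068), Cd300a by 2.01 ± 0.45 (adjusted p = 0.103) and Siglecf, which 1 of the 3 CDP arrays showed at log2 5, by -1.62 ± 0.50 (adjusted p = 0.200).

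None of the 7 tested ITIM effectors of 11 with a probe set passed (limma). Ptpn6 (SHP-1), the phosphatase that Lair1 and Sirpa recruit, was at 11.52, 12.91 and 12.29 on the CDP arrays and at 9.77 and 10.89 on the CMP arrays. The groups did not overlap, but each spread over more than 1 log2 unit, and the difference was 1.91 ± 0.55 (SE, adjusted p = 0.174). Inpp5d (SHIP-1), the lipid phosphatase recruited by Fcgr2b, differed by 0.65 ± 0.32 (adjusted p = 0.394) and Ptpn11 (SHP-2) by -0.11 ± 0.40 (adjusted p = 0.933). Cd47, the ligand of Sirpa, was between 12.21 and 12.59 on all 5 arrays and differed by -0.06 ± 0.31 (adjusted p = 0.954). The collagens of the list, which are ligands of Lair1, were below log2 5 on every array.

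**Figure D3:**
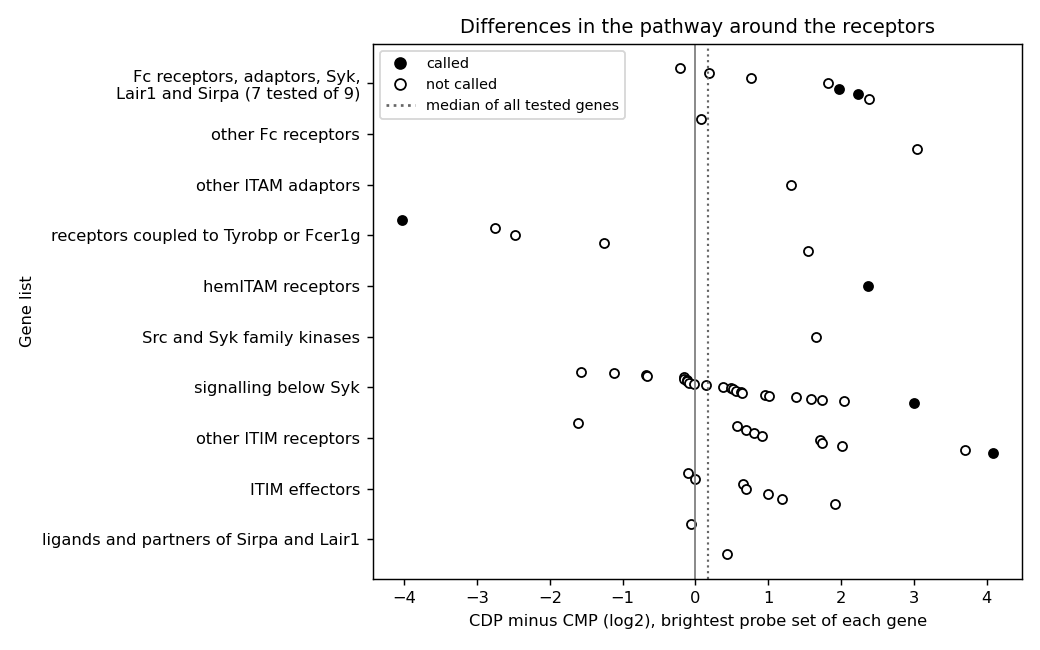
CDP minus CMP (log2, horizontal axis) of each tested gene by list (vertical axis), with the 7 tested Fc receptor, adaptor, kinase and inhibitory receptor genes in the top row and called genes filled. The solid line marks 0 and the dotted line the median of all tested genes (0.17); Clec4e is the called gene at the far left (-4.03), and Clec7a, Pik3r5 and Pirb are the called genes at the right (2.37, 3.00 and 4.09).

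**Figure D4:**
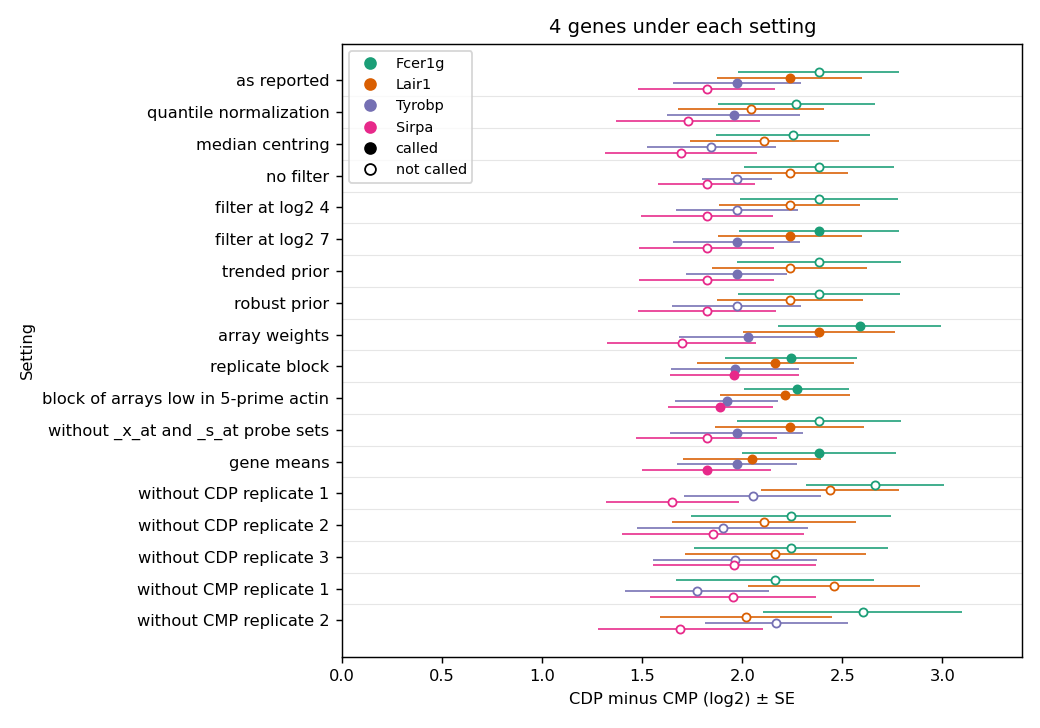
CDP minus CMP (log2, horizontal axis) with the standard error for Fcer1g, Lair1, Tyrobp and Sirpa under each setting of the analysis (vertical axis), filled where the adjusted p was under 0.05. All differences shown lie between 1.65 and 2.66, and no point is filled where 1 array is left out.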

How the data were processed

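The authors deposited log2 values made with GCRMA (background correction by probe sequence, quantile normalization, summary per probe set), per the submitters' processing notes; its version, and whether all arrays were processed together, are not given in the sources used here. Per the labels' protocols, RNA of sorted cells (10000 to 30000, per the series' design text) was amplified over 2 cycles. Groups came from the sample titles; that of CDP 3 begins with CM and its other labels give CDP. The values were not normalized again. Of 45037 probe sets (64 controls left out), 34945 have 1 symbol. The comparison used limma 3.58.1 under R 4.3.3 (lmFit, eBayes, 2-sided; 3 residual and 3.14 prior degrees of freedom) on 16552 probe sets with at least 2 arrays at log2 5. Folds use values below 5 set to 5 where an array of the dimmer group lies there ("at least"); the fit itself uses all values as deposited. The procedure was tested on simulated data. The number of arrays limits the precision.

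The 9 genes, lists and tests were chosen with earlier results of these data known. Named were all 9 genes, called genes of each list (at most 5), and Hcst, Cd247, Ptpn6, Ptpn11, Inpp5d, Fgr, Plcg2, Btk and Cd47; other genes named without a call, and the motifs, were chosen after their values or sequences were seen. Genes of the lists without a single-symbol probe set were not analysed here. Promoters were matched for 7 of the 9 genes. Alternatives were other scaling, filters, variance models, array weights, blocks, probe set choices and leaving out each array.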

Additional observations from a re-analysis of the deposited data

How the results depend on the processing

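The differences of Fcgr2b, Fcer1g, Tyrobp, Lair1 and Sirpa kept their sign in all 17 alternatives each, at 0.44 to 1.03, 2.16 to 2.66, 1.77 to 2.17, 2.02 to 2.46 and 1.65 to 1.96 (log2), while the calls did not hold. On these genes every CDP array lay above both CMP arrays, so leaving out an array could not change the sign. Other filters and priors left the differences themselves as reported, so the kept sign is no independent check there. Tyrobp was called in 8 of 17, Lair1 in 6, Fcer1g in 5, Sirpa in 3 and Fcgr2b in 0 (limma). Against 2 called genes and 2 called probe sets as reported, quantile normalization and a trended prior each gave 1 and 1 (Tyrobp), and median centring, no filter, a filter at log2 4 and a robust prior gave 0 and 0. In each of these settings, 4 of the 9 genes had an unadjusted p under 0.05, although Fcgr1 and Fcgr4 were tested only without a filter. The shares at hand for comparison are by probe set, 7.94% of all tested without a filter and 15% to 16% in the others. As reported, the share was 15.9% by probe set and 17.1% by gene. Averaging each gene's probe sets gave 4 genes, with 3.47% of all tested genes called. Blocking on the arrays low in 5′ signal gave 4 genes and 6 probe sets, with 1438 of all 16552 probe sets called. Leaving out each array gave 0 to 0 genes and 0 to 0 probe sets; over all tested probe sets such fits called 44 without CDP 1 and 0 without any other array, against 287, with fewer samples and 2 residual degrees of freedom. Where 1 CMP array was left, it was assumed to vary like the CDP arrays. Leaving out an array moved Fcgr3 between -0.48 and 0.064, above 0 without CMP 2. It moved Syk between -0.16 and 0.53, below 0 without CDP 2 (-0.033) and without CMP 1, and averaged probe sets gave Syk -0.13. The pathway lists held 4 called genes as reported, 0 without a filter, 2 with the filter at log2 7, 8 with gene means, 18 with the block of arrays low in 5′ signal, and 0 to 3 when an array was left out. The cause of these changes was not tested.

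With the replicate number as a block, 4 genes, 6 probe sets and 10 genes of the pathway lists were called, and all probe sets called went from 287 to 608; CDP 3 has no CMP partner in that fit and adds nothing to the difference. The deviations of same-numbered arrays from their group means correlated at 0.61 and 0.58 across probe sets, but with 2 pairs and no label that ties a number to an animal or day the arrays were not paired. The deviations of the 2 CMP arrays mirror each other, so the 2 correlations are not independent. Replicate 1 was also the array low in 5′ signal in both groups, so within these pairs number and array kind cannot be told apart.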
